A study of Mus musculus with 11 samples.

Results

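The genes described here are 10 genes of polyamine metabolism: Smox, Odc1, Amd1, Srm, Sms, Sat1, Sat2, Azin1, Oaz1 and Paox. They were chosen by symbol, for their known roles and with earlier results of these data known. All 10 were among the 24421 gene symbols of the deposited count tables. RNA was measured in 2 materials from resting muscle of tamoxifen-treated mice. The first was sorted mesenchymal progenitors (CD45-, CD31-, Sca1+, tdTomato+, alpha7-), with 3 WT and 3 WT/flox libraries. The second was whole lysate of the tibialis anterior muscle, with 2 WT and 3 WT/flox libraries, all from males and all labelled day 56 after tamoxifen.

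WT/flox mice carried Hic1CREERT2, a Td.tomato reporter and 1 b-CATENIN allele with a floxed exon 3, whose removal yields a stabilised beta-catenin protein. Of the WT mice, the labels give no further allele. The WT progenitors were sorted as tdTomato-positive, so they too carried an active reporter. The Cre is driven from the Hic1 locus, which in muscle is active in mesenchymal cells and not in muscle fibres, so a lysate mixes cells that could recombine with fibres that were not targeted. Both progenitor groups held 2 males and 1 female. All progenitor libraries were labelled day 14 except WT/flox library 74A3, labelled day 56. No label states the age of the animals. The WT lysates come from animals 73A5 and 73A7 and the WT/flox lysates from 71B3, 71B4 and 71B5, so the 2 series of animal numbers cannot be told apart from genotype.

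Polyamines (putrescine, spermidine and spermine) are small positively charged molecules that bind nucleic acids and are needed for growth and translation. Ornithine decarboxylase (Odc1) makes putrescine, and spermidine synthase (Srm) and spermine synthase (Sms) extend it with aminopropyl groups that come from S-adenosylmethionine once it has been decarboxylated by the product of Amd1. Antizyme (Oaz1) leads ornithine decarboxylase to the proteasome, and the antizyme inhibitor (Azin1) prevents that. In the other direction, spermine oxidase (Smox) turns spermine directly into spermidine, while the acetyltransferase Sat1 and the oxidase Paox do so by way of acetylated intermediates. Sat2 is a relative of Sat1 that acts on thialysine. In skeletal muscle Smox is known as a gene of the fibres whose transcript is lost in several forms of muscle atrophy.

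Amd1 is described first, with its sequence, because it has a near-identical copy. It had 0 counts in 9 of 11 libraries and 1 count each in lysates 71B3 and 71B4, and was tested in neither material. Amd1 is a gene of 8 exons on GRCm38 chromosome 10, from 40287458 to 40302186 on the minus strand, whereas Amd2, its copy on the same chromosome (35708675 to 35711892, minus strand), has 1 exon. Their coding sequences, of 1005 bases each, differ at 1 base (99.9% identical). The difference is G796C, Amd1's base first, counted from the first base of the start codon. Coding bases 751 to 840 around it are shown because they hold that base, in capitals (GENCODE M21 coordinates, chr10:40290142-40290231 for Amd1 and chr10:35710720-35710809 for Amd2, both on the minus strand).
Amd1: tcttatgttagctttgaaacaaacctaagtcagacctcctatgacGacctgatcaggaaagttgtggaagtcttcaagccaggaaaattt
Amd2: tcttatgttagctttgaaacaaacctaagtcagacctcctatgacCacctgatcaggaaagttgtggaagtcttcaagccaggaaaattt
Of all windows of 43 bases, the read length, in the longest coding transcript of Amd1, 87.9% also occur in Amd2. Amd2 had 0 counts in all 11 libraries. How reads that match both genes were counted is not stated, and the part of the shared sequence in these counts was not tested. No level of this decarboxylase is read from them.

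The same count of shared windows differed widely among the other 9 genes. Smox and Sat2 shared 0 windows with transcripts of another gene (0 of 2257 for Smox), Srm 4.48%, Azin1 6.56%, Sat1 10.5%, Sms 28.8%, Paox 30.1%, Odc1 45.6% and Oaz1 53.8%. For Odc1 the windows were shared with 21 other genes and for Oaz1 with Oaz1-ps alone, which had 0 counts in every library. The levels of Odc1 and Oaz1 are uncertain for this reason. Azin1 lies opposite Gm49077 and Paox opposite Echs1, and reads of such pairs cannot be told apart if strand was not used in counting, which is not stated.

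Smox was the polyamine gene whose difference between genotypes passed the edgeR test, and it passed only in lysate. There it was 3.31-fold lower in WT/flox than in WT mice, while the other 8 tested polyamine genes did not pass. Odc1 and Sms were also lower in every WT/flox lysate than in every WT lysate, with 1.47-fold and 1.504-fold differences, without passing. In sorted progenitors 0 of 9 tested polyamine genes passed. Levels are given as CPM, counts relative to the library total after TMM scaling within each material. A fold change is the log2 ratio of WT/flox to WT from edgeR's quasi-likelihood test, and a gene passed at a Benjamini-Hochberg adjusted p under 0.05 over all genes of that material.

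**Figure D1:**
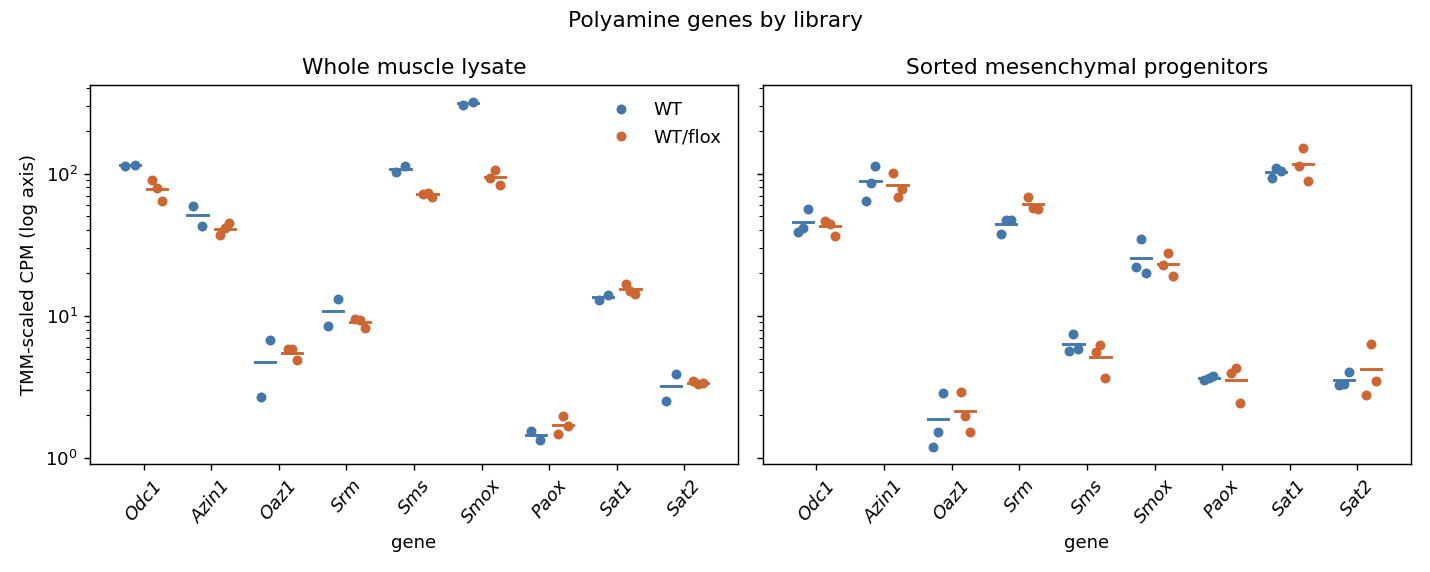
TMM-scaled CPM (log axis) of the 9 tested polyamine genes in each library; points are single animals, short lines are group means, colours are genotypes, and lysates (left) and progenitors (right) have a panel each. In lysate the Smox points of the 3 WT/flox animals (83.6 to 105.9) lie far below those of the 2 WT animals (305 and 318), whereas the Smox points of the progenitors overlap between genotypes.

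Smox (ENSMUSG00000027333) lies on GRCm38 chromosome 2, from 131491496 to 131525922 on the plus strand. Its level in lysate was 305 and 318 CPM in the WT animals 73A5 and 73A7, and 92.6, 105.9 and 83.6 CPM in the WT/flox animals 71B3, 71B4 and 71B5. Both WT libraries were above all 3 WT/flox libraries, and the gap between the genotypes was larger than the spread within either. These values rest on 10055 counts in WT and 5488 counts in WT/flox animals. The mean was 311 ± 8.72 CPM in WT (SD, n = 2) and 94.0 ± 11.2 CPM in WT/flox (SD, n = 3), which leaves 30.2% of the WT level. The log2 fold change was -1.73 (SE 0.15; edgeR adjusted p = 0.00546). By p-value Smox ranked 8 among 12654 tested genes, and its fall was number 11 in size among the 27 genes that passed the test as lower.

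Of the 12654 genes tested in lysate, 92 passed (0.727%), and among the polyamine genes 1 of 9 did. The polyamine list was chosen with earlier results of these data known, so no conclusion is drawn from these shares. Smox passed in 11 of 12 alternative analyses, with log2 fold changes from -1.81 to -1.65 and adjusted p from 6.11e-21 to 0.0588. Among the 11 was the fit with a replicate block, described below, which was chosen after seeing the data. The exception was the fit without WT/flox library 71B5, in which Smox kept a log2 fold change of -1.65 (adjusted p = 0.0588). In that fit 0 genes passed by edgeR, the tool used for it, with 1023 at an unadjusted p under 0.05.

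**Figure D2:**
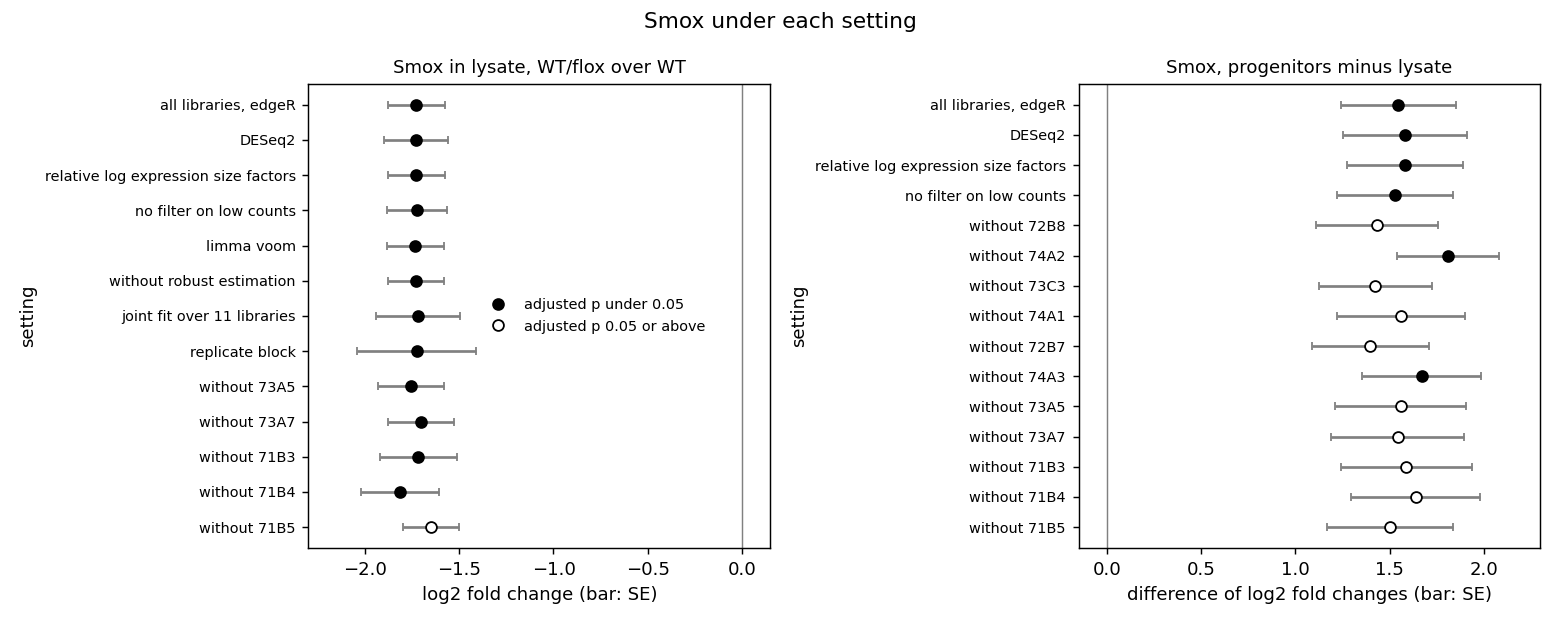
Smox under each setting: on the left, the log2 fold change of WT/flox over WT in lysate, and on the right, the difference between that in progenitors and that in lysate; points are estimates, bars are SE, and filled points passed at an adjusted p under 0.05. Lysate estimates stay between -1.81 and -1.65, with an open point without 71B5, and the differences run from 1.40 to 1.81, with open points in 9 of the 11 fits that leave out a library.

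A promoter window of Smox is shown because the transcript of this gene differed, and because beta-catenin acts on genes together with TCF/LEF proteins. It is the window around the RefSeq transcription start, mostly upstream of it (GRCm38.p6, chr2:131491612-131491911, plus strand), with 71% G or C. The gene start in GENCODE M21, given above, lies upstream of this window, and other starts of Smox were not searched.
Smox promoter: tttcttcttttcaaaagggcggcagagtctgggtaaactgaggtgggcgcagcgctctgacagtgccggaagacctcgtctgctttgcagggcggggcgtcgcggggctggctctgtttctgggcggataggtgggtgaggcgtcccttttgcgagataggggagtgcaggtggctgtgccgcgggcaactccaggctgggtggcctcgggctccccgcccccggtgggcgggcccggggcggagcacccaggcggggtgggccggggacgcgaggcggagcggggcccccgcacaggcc
It holds no match, on either strand, to a TCF/LEF core (ATCAAAG), to the E-box of Myc proteins (CACGTG), to TATAAA or to CCAAT, so that no letter is in capitals. Of 32851 RefSeq promoters of the same length, 3.73% hold the TCF/LEF core, 7.15% the E-box, 13.6% TATAAA and 37.4% CCAAT. No match says only that these letters are not in this window. Of the polyamine genes with a promoter in that table (Azin1 and Srm have none there), Sms alone held the E-box, at the upstream of its 2 starts, and none held the TCF/LEF core.

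Among the synthesis genes, Odc1 (chromosome 12, 17544794 to 17551505, plus strand) reached 113.4 and 115.5 CPM in WT lysates and 89.7, 79.3 and 64.1 CPM in WT/flox lysates. The groups did not overlap, with means of 114 ± 1.48 (SD, n = 2) and 77.7 ± 12.9 CPM (SD, n = 3). The log2 fold change of -0.56 (SE 0.17) did not pass (edgeR adjusted p = 0.276; 0.137 to 0.867 over the alternatives).

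Sms, which makes the spermine that Smox consumes (X chromosome, 157443855 to 157492287, minus strand), reached 101.8 and 112.9 CPM in WT lysates and 72.1, 73.4 and 68.5 CPM in WT/flox lysates. Again every WT/flox library was below both WT libraries. The log2 fold change was -0.59 (SE 0.13; edgeR adjusted p = 0.130). With DESeq2 the same fold change passed (adjusted p = 0.0112), while over all alternatives the adjusted p ran from 0.0112 to 0.787. DESeq2 passed 2.08% of all genes in lysate, against 0.727% by edgeR and 0.648% by limma voom.

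The 3 polyamine genes that were lower without overlap, Smox, Odc1 and Sms, are to be read beside the 12.9% of all tested genes that were lower in lysate without overlap and the 25.3% that did not overlap in either direction. Srm, the spermidine synthase (chromosome 4, 148591503 to 148594993, plus strand), did not join them. It was at 8.50 and 13.1 CPM in WT and at 9.43, 9.28 and 8.23 CPM in WT/flox lysates, with overlapping groups and an edgeR adjusted p of 0.793.

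The regulators of ornithine decarboxylase did not pass in lysate. Azin1 (chromosome 15, 38487427 to 38519266, minus strand) was at 59.1 and 42.9 CPM in WT and at 36.8, 41.4 and 45.0 CPM in WT/flox lysates, and the 2 WT animals lay further apart than the 3 WT/flox animals (log2 fold change -0.31, SE 0.18; edgeR adjusted p = 0.652). Oaz1 (chromosome 10, 80826656 to 80829290, plus strand) was at 2.69 and 6.73 CPM in WT and at 5.85, 5.82 and 4.88 CPM in WT/flox lysates. All WT/flox values of Oaz1 fell between the 2 WT values.

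The other catabolic genes did not pass either, and their fold changes were positive. Sat1, whose product acetylates spermidine and spermine (X chromosome, 155213132 to 155216449, minus strand), was at 13.0 and 14.1 CPM in WT and at 16.9, 14.9 and 14.2 CPM in WT/flox lysates, with a log2 fold change of 0.18 (SE 0.15; edgeR adjusted p = 0.810). The groups of Sat1 did not overlap but came close. Paox (chromosome 7, 140115799 to 140137224, plus strand), the oxidase of acetylated polyamines, stayed between 1.35 and 1.97 CPM in all 5 lysates (log2 fold change 0.23, SE 0.29; edgeR adjusted p = 0.881). Sat2 (chromosome 11, 69622024 to 69623870, plus strand) lay between 2.51 and 3.91 CPM (0.08, SE 0.25; edgeR adjusted p = 0.964). Over the 9 tested polyamine genes, 5 log2 fold changes were negative and 4 positive, with a median of -0.27, against 0.00 over all genes tested in lysate.

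**Figure D3:**
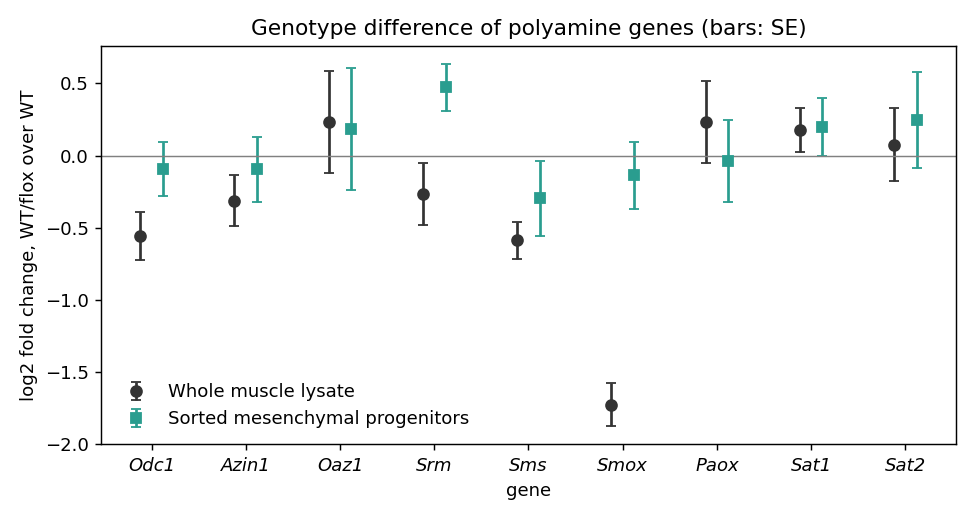
Log2 fold change of WT/flox over WT of each tested polyamine gene in lysate and in progenitors; circles are lysate, squares are progenitors and bars are SE. Smox in lysate (-1.73), the value that passed the test, lies far below the rest, and the 9 progenitor values lie between -0.30 and 0.47.

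In sorted progenitors, Smox was at 21.9, 34.7 and 19.9 CPM in the WT animals 72B8, 74A2 and 73C3, and at 22.7, 27.6 and 19.2 CPM in the WT/flox animals 74A1, 72B7 and 74A3. The groups overlapped, the highest library being WT and the lowest WT/flox, with means of 25.5 ± 8.02 and 23.2 ± 4.20 CPM (SD, n = 3 each). The log2 fold change was -0.14 (SE 0.24; edgeR adjusted p = 0.967), and it was -0.02 without the day 56 library 74A3 and 0.14 without WT library 74A2.

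Srm was the progenitor value nearest to the threshold. It was at 37.7, 46.8 and 47.1 CPM in WT and at 68.7, 57.4 and 56.5 CPM in WT/flox progenitors, so that each WT/flox library was above each WT library. The log2 fold change was 0.47 (SE 0.16; edgeR adjusted p = 0.206), and 0.52 without 74A3 (adjusted p = 0.329); the adjusted p ran from 0.148 to 0.657 over the alternatives. Srm was 1 of 9 genes without overlap, where 16.9% of all genes tested in progenitors did not overlap.

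The remaining genes overlapped between genotypes in progenitors. Odc1 lay between 36.5 and 56.2 CPM and Azin1 between 64.1 and 113.7 CPM over the 6 libraries. Sat1 ranged from 88.6 to 150.0 CPM, with both extremes in WT/flox animals. Sms lay between 3.64 and 7.41 CPM, Paox between 2.43 and 4.27, Sat2 between 2.79 and 6.34, and Oaz1 between 1.21 and 2.94. In edgeR's test 0 of 9 polyamine genes passed and 1, Srm, had an unadjusted p under 0.05; DESeq2 and limma voom also passed 0. Of all 12392 genes tested there, edgeR passed 3.66%, DESeq2 5.43% and limma voom 3.29%. The median log2 fold change of the 9 genes was -0.04, against 0.00 over all genes.

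The difference between the materials was tested in 1 fit over the 11 libraries. The Smox fold change in progenitors exceeded that in lysate by 1.55 on the log2 scale (SE 0.31; edgeR adjusted p = 0.0312). Of 13781 genes, 0.769% passed this interaction test, and Smox was the polyamine gene that did. DESeq2 gave 1.58 (adjusted p = 0.000265). The call was lost in 9 of 11 fits without 1 library and held without 74A2 (1.81, adjusted p = 0.00656) and without 74A3 (1.67, adjusted p = 0.0350), with adjusted p up to 0.115 in the others. Srm had a difference of 0.68 (SE 0.28; edgeR adjusted p = 0.456), and the other 7 lay between -0.32 and 0.40. Material, day and the sexes sampled change together in this comparison and cannot be told apart.

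Levels of the polyamine genes were also compared between the 2 materials. Between WT progenitors and WT lysates, scaled together, 7 of 9 polyamine genes differed, a share near the 76.1% of all genes that did. Here too material, day and the sexes sampled change together, as does the dissociation and sorting of the progenitors. These cannot be told apart. In lysate Sms was 25.2-fold higher (edgeR adjusted p = 2.04e-10), Smox 18.2-fold (1.62e-09), Odc1 3.71-fold (1.86e-06) and Oaz1 3.61-fold (0.00131). In progenitors Sat1 was 5.08-fold higher (edgeR adjusted p = 4.04e-07), Srm 2.75-fold (2.57e-05) and Paox 1.69-fold (0.0473). The oxidase and the synthase of spermine were thus the polyamine genes with the largest excess in whole muscle, and the acetyltransferase Sat1 the one with the largest excess in progenitors. Paox lost its call in every fit without 1 WT library and with the other size factors (adjusted p 0.0617 to 0.199), and Oaz1 lost it without 73A7 (log2 difference -1.11, adjusted p = 0.05002, against -1.85 with it). Sat2 (-0.42) and Azin1 (0.23) did not pass.

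Levels of different genes were compared as CPM per kilobase of exon, in WT animals. In lysate Smox was first with 80.0 ± 2.24 (SD, n = 2), followed by Odc1 with 33.6 ± 0.435 and Sms with 17.9 ± 1.31. Azin1 (8.15 ± 1.83), Srm (6.76 ± 2.05) and Sat1 (4.88 ± 0.282) came next, and neighbours in that trio did not differ beyond their spread. Sat2 (2.25 ± 0.692) and Oaz1 (1.84 ± 1.12) were within each other's spread as well, above Paox at 0.296 ± 0.0304. In WT/flox lysates Smox, at 24.1 ± 2.89 CPM per kilobase (SD, n = 3), did not differ beyond the spread from Odc1 at 22.8 ± 3.78, and Sms was at 11.9 ± 0.421.

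In WT progenitors the order was different. Sat1 led with 36.7 ± 3.10 CPM per kilobase (SD, n = 3), then Srm with 27.4 ± 3.35, Azin1 with 14.1 ± 3.97 and Odc1 with 13.3 ± 2.80, of which the last 2 did not differ beyond their spread. Smox came next with 6.55 ± 2.06, above Sat2 (2.48 ± 0.319) and Sms (1.05 ± 0.159). Paox (0.744 ± 0.0230) and Oaz1 (0.731 ± 0.348) were last and within spread. The ranks of Oaz1 and Odc1 are uncertain in both materials, because much of their sequence is shared with other genes. With the length of the longest transcript in place of the exon union, Sat1 (10.02) moved above Srm (8.08) in lysate and Odc1 (20.5) above Azin1 (18.1) in progenitors.

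**Figure D4:**
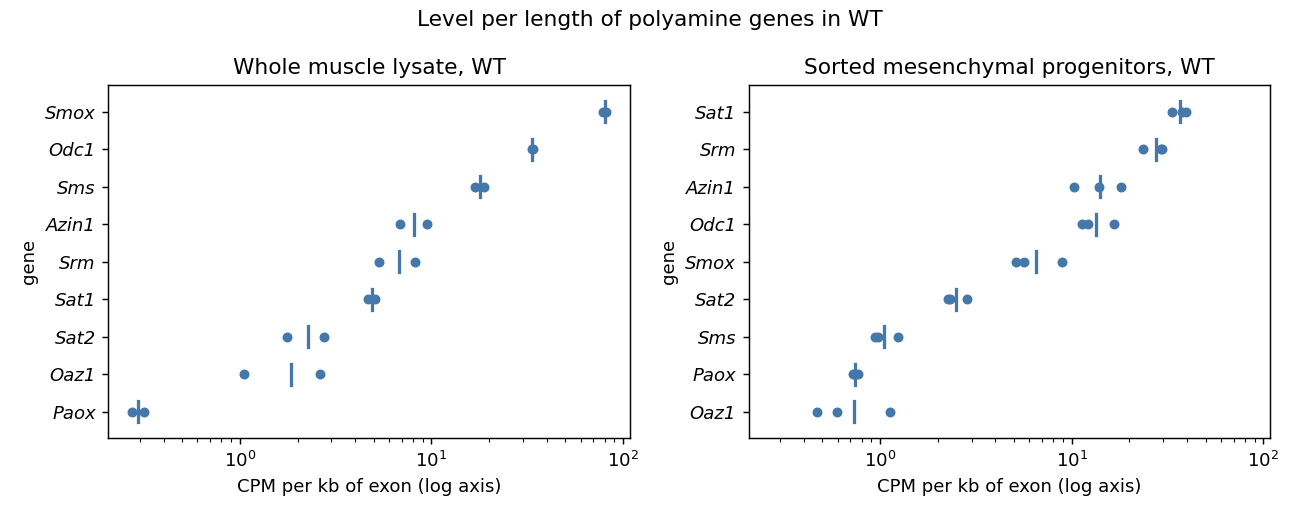
Level of each tested polyamine gene per kilobase of exon (TMM-scaled CPM per kb, log axis) in WT animals of each material; points are animals and lines are means. Smox leads in lysate at 80.0 and Sat1 in progenitors at 36.7.

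Beyond these 10 genes, 53 others of the pathway and its surroundings were followed, of which 38 were tested in each material. In lysate 0 of 38 passed by edgeR or limma voom, 1 by DESeq2 (Slc47a1), and 3 had an unadjusted p under 0.05 by edgeR. Over all genes tested in lysate, edgeR passed 0.727%, limma voom 0.648% and DESeq2 2.08%, and 9.69% had an unadjusted p under 0.05. Their median log2 fold change was 0.00, with 19 positive and 19 negative. None of the pathway lists held a gene that passed by edgeR in lysate. Tested were 5 genes of ornithine and arginine supply or further regulation of ornithine decarboxylase. The methionine cycle and salvage had 8 tested genes and hypusine formation 4. Transport had 8, further acetylation and oxidation 4 and the Myc network 9, with Cdkn1a counted in that last list.

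Slc47a1, an exporter of organic cations, was at 72.2 and 70.2 CPM in WT and at 51.4, 46.0 and 47.8 CPM in WT/flox lysates. Its groups did not overlap, with a log2 fold change of -0.56 (SE 0.13; edgeR adjusted p = 0.141, and 0.0306 by DESeq2; 0.0306 to 0.922 over the alternatives). Mxi1, an antagonist of Myc, lay the other way, at 77.8 and 71.4 CPM in WT and 100.4, 106.3 and 105.0 CPM in WT/flox lysates (0.48, SE 0.13; edgeR adjusted p = 0.239). The third gene with an unadjusted p under 0.05 was Mycn, a relative of Myc, at 1.62 and 0.897 CPM in WT and 2.64, 2.56 and 1.91 CPM in WT/flox lysates (log2 fold change 0.90, SE 0.34; edgeR adjusted p = 0.419). Its groups did not overlap. Myc itself, which regulates Odc1, was at 3.55 ± 0.959 (SD, n = 2) and 3.50 ± 1.21 CPM (SD, n = 3). Both were named after their values were seen.

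The most abundant genes of supply, regulation and use did not pass in lysate. Oat, which links ornithine to proline and glutamate, was at 256 ± 36.1 CPM in WT and 267 ± 24.0 in WT/flox, and Oaz2, a second antizyme, at 151 ± 1.46 and 179 ± 5.74 (edgeR adjusted p = 0.956 and 0.623), the latter without overlap. Mat2a, which makes S-adenosylmethionine, was at 145 ± 23.8 and 128 ± 12.3 CPM. Eif5a, the translation factor that carries hypusine made from spermidine, was at 402 ± 48.2 and 375 ± 69.3 CPM, and Dohh, the last enzyme of that modification, at 55.0 ± 6.54 and 60.1 ± 7.73. Each WT value here is over 2 and each WT/flox value over 3 animals (SD), and the widest log2 fold change of these 5 genes was 0.25, of Oaz2. Less abundant genes of the pathway lists had wider ones, also without passing. Examples, named after their values were seen, were 0.39 (SE 0.26) for Eif5a2, 0.38 (SE 0.24) for Aldh18a1 and -0.33 (SE 0.24) for Slc7a1. The lowest of the 38 was -0.66 (SE 0.43), for Slc22a3 at 0.640 to 1.67 CPM, also named after its values were seen. The transporter subunit Slc3a2 (0.01), the Myc partner Max (-0.02), the polyamine deacetylase Hdac10 (-0.12), the salvage enzyme Apip (-0.16) and Maob (0.17) did not pass either.

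In progenitors 1 of the 38 passed, where 3.66% of all genes did, and 3 of the 38 had an unadjusted p under 0.05, where 12.5% of all genes did. Aoc3, the gene that passed, an amine oxidase at the cell surface that acts on primary amines, was at 74.9, 94.2 and 78.2 CPM in WT and at 46.0, 25.7 and 30.8 CPM in WT/flox progenitors. Every WT/flox library was below every WT library, and the log2 fold change was -1.27 (SE 0.22; edgeR adjusted p = 0.0122). It did not pass without WT/flox library 72B7 (-1.10, adjusted p = 0.0580) or without 74A3 (-1.20, adjusted p = 0.0711), and ran from 1.01e-05 to 0.0711 over all alternatives. Maob, a mitochondrial amine oxidase, was at 54.2 ± 12.8 CPM in WT and 79.3 ± 12.8 in WT/flox (SD, n = 3 each; 0.55, SE 0.21; edgeR adjusted p = 0.267). The median of the 38 was 0.03.

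Summed shares of endothelial, mural and tendon markers were also lower in the WT/flox progenitors without overlap. The sums of fibre, immune, muscle stem cell, glia, adipocyte and red blood cell markers overlapped between genotypes. Those of 5 endothelial genes were 0.0345% to 0.0464% of counts in WT and 0.0146% to 0.0182% in WT/flox, those of 5 mural genes 0.0164% to 0.0260% and 0.00749% to 0.0137%, and those of 3 tendon genes 0.0168% to 0.0433% and 0.00631% to 0.0136%. The sum of 7 progenitor genes was higher, at 2.89% to 3.50% and 4.28% to 4.65%. Of single markers, Tek (-1.31, SE 0.18; edgeR adjusted p = 0.00319) among the endothelial genes and Cspg4 (-2.24, SE 0.30; 0.00269) among the mural genes fell, and Col1a1 (1.16, SE 0.20; 0.00998) among the progenitor genes rose. The other 4 endothelial genes, Pecam1, Cdh5, Flt1 and Emcn, overlapped between genotypes. Median log2 fold changes were -0.41 over the 5 endothelial, 0.08 over the 5 mural, -0.71 over the 3 tendon and 0.21 over the 7 progenitor genes. The mural sum was thus lower although the median of its genes was slightly positive. No marker of the endothelial, mural or tendon lists was at 0 in any progenitor library. The part of these shares in the Aoc3 and Srm values was not tested.

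The genes whose pattern over the 11 libraries lay nearest to that of Smox were Irf5, Flnc and Ehd4. Likeness was the root mean square difference of log2 CPM, centred on the mean of each material, over 11505 genes tested in both materials. It was 0.29 for Irf5, an interferon regulatory factor, 0.30 for Flnc, the filamin of muscle, and 0.31 for Ehd4, a protein of endosome traffic. They were chosen for this likeness over the same libraries, so their fold changes are a description with no test. These were -1.39, -1.48 and -1.20 in lysate and -0.55, -0.38 and -0.39 in progenitors.

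Of the markers of 10 cell types, 0 passed by edgeR in lysate, but summed shares of some differed between the groups. For 10 muscle fibre genes the summed share of counts ran from 16.3% to 18.0% in WT lysates, against 12.6% to 16.2% in WT/flox lysates, with a median log2 fold change of -0.49. The lowest share was that of 71B5, and in 71B3 and 71B4 it was 16.1% and 16.2%. The summed share of 7 progenitor genes ran from 0.0563% to 0.0842% in WT lysates, against 0.109% to 0.121% in the others, that of 4 muscle stem cell genes 0.0118% to 0.0137% and 0.00845% to 0.00907%, all without overlap. Median log2 fold changes were 0.26 over the 7 progenitor genes and 0.10 over the 3 tested stem cell genes. The stem cell sum was thus lower although the median of its tested genes was slightly positive. For 7 immune genes the WT/flox range of 0.00339% to 0.00447% lay within the WT range of 0.00132% to 0.00552%. No fibre or progenitor marker was at 0 in any lysate. The part of these shares in the Smox result was not tested. In bulk tissue, fewer cells of a type and less RNA per cell cannot be told apart.

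In sorted progenitors the 10 fibre genes made up 0.00190% to 0.0133% of counts in WT and 0.00191% to 0.00252% in WT/flox. Total counts were 13119843 to 16805238 per progenitor library and 16892158 to 19449227 per lysate. The floxed gene Ctnnb1 was at 297 ± 37.6 CPM in WT (SD, n = 2) and 297 ± 11.7 CPM in WT/flox lysates (SD, n = 3), and at 482 ± 38.3 and 402 ± 23.1 CPM in progenitors (SD, n = 3 each; edgeR adjusted p = 0.997 and 0.673). Gene counts sum over all exons and do not check the loss of exon 3.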

How the data were processed

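Libraries were poly(A)-selected, stranded and read as paired ends of 43 bases, per the labels. Per the submitters' processing notes, mm10 was the genome and bcl2fastq 2.20, STAR and Bowtie were used; which program counted reads, and whether by strand, is not given in the sources used here. What the authors deposited are whole-number counts per gene symbol, in a table per material. The deposited sample tables call the lysates FAPs, against the labels, which were followed. Of 24421 symbols, 23376 matched GENCODE M21 (GRCm38).

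Within each material the genotypes were compared in edgeR 4.0.16 under R 4.3.3 (filterByExpr, TMM, robust quasi-likelihood F test, two-sided, Benjamini-Hochberg, threshold 0.05), and the interaction and the WT comparison of materials in 1 fit over 11 libraries. SE is that implied by F. Tests were checked on simulated data in which every gene had the same variability between libraries. Real genes need not, so that check does not measure error rates in these data. DESeq2 1.42.0, limma 3.58.1 (voom), other size factors, no filter and leaving out each library were alternatives. The libraries are from 11 animals, so p-values measure the spread between animals. Libraries of a group differed beyond sampling noise.

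The members and lists were chosen with earlier results of these data known. Named are all members, Ctnnb1, each called gene and the 2 most abundant genes per kilobase of each pathway list (a name is given in the text where its values add to the account), and the 3 genes nearest Smox.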

Additional observations from a re-analysis of the deposited data

Results flagged for a closer look

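The Smox fold change differed between materials by a test of the difference itself. In 1 fit over the 11 libraries, the log2 fold change of WT/flox over WT was higher in progenitors than in lysate by 1.55 (SE 0.31; edgeR adjusted p = 0.0312). All 3 WT/flox lysates were below both WT lysates, while the 6 progenitor libraries overlapped between genotypes. The call did not hold in 9 of 11 fits without 1 library, though the difference stayed between 1.40 and 1.81.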

How the results depend on the processing

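In lysate 252 of 276 values from alternative analyses kept direction and call, in progenitors 298 of 322 and in the interaction 102 of 126. Between WT materials 7 values of polyamine genes lost their call, 2 changed sign and the others kept direction and call. DESeq2 called 2 polyamine genes in lysate (Smox and Sms, 0 higher), and over all genes 263 in lysate, 749 in progenitors and 269 in the interaction. Without the filter on low counts 139 genes were called in lysate. The cause was not tested.

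Leaving out each library in turn, the call of Smox in lysate was lost without 71B5 (-1.65, adjusted p = 0.0588), with -1.81 to -1.65 over the 5 fits, so that 0 to 1 polyamine genes were called. Over all genes, 0 (without 71B5) to 239 (without 73A5) were called in lysate, with 25 without 71B4 and 207 without 73A7. In progenitors 262 (without 74A3) to 483 were called, with 266 without 72B7, and in the interaction 54 to 114, with 0 to 1 polyamine genes and 1.40 to 1.81 for Smox.

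Values that changed sign were uncalled in every analysis. With a library left out, lysate log2 fold changes ran from -0.21 to 0.42 for Sat2, -0.29 to 1.03 for Oaz1, -0.55 to 0.077 for Srm, -0.34 to 0.0034 for Mat2a, -0.21 to 0.27 for Slc3a2, -0.23 to 0.073 for Aoc3, -0.22 to 0.042 for Eif5a, -0.30 to 0.0020 for Apip, -0.23 to 0.24 for Max, -0.081 to 0.21 for Oat and -0.13 to 0.13 for Ctnnb1. In progenitors they ran from -0.29 to 0.14 for Smox, -0.20 to 0.094 for Odc1, -0.29 to 0.13 for Azin1, -0.10 to 0.65 for Oaz1, -0.021 to 0.37 for Sat1, -0.18 to 0.47 for Sat2, -0.19 to 0.17 for Paox, -0.81 to 0.50 for Slc47a1, -0.14 to 0.32 for Hdac10, -0.14 to 0.20 for Eif5a, -0.21 to 0.10 for Apip, -0.13 to 0.036 for Max and -0.092 to 0.069 for Oaz2. Interaction differences ran from -0.11 to 0.43 for Azin1, -0.25 to 0.14 for Sat1, -0.87 to 0.40 for Oaz1 and -0.31 to 0.39 for Sat2, and the WT difference of Azin1 from -0.047 to 0.50. Limma voom gave 0.0028 for Max and 0.0015 for Ctnnb1 in lysate and -0.088 for Slc47a1 in progenitors. Ctnnb1 was at 0.0023 in the joint fit, and the interaction of Sat1 at 0.0043 by DESeq2 and 0.0054 with the other size factors.

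The deposited sample tables number the animals, and the main tests used no pairing by these numbers. For libraries of the same number, deviations from group means correlated at -0.19 to 0.28 in progenitors and at -0.56 and -0.05 in lysate. Groups of 2 or 3 libraries are too small for these correlations to settle whether animals were paired. With the replicate block, an alternative chosen after seeing the data, 178 genes were called in lysate and 491 in progenitors. In lysate only the numbers 2 and 3 occurred in both genotypes, so 71B3 had no WT library in its block. That fit thus had little left from which to measure the spread between animals. Smox in lysate was then at -1.73 and Ctnnb1 at 0.035, and Slc47a1 in progenitors at -0.036. With few counts, as for Oaz1, Sat2 and Paox, and 2 WT lysates, precision is limited.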
